A study of Mus musculus with 9 samples.

Results

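Nascent transcription was described in mouse embryonic stem cells that had received no doxycycline, as measured in the 3 libraries labelled 0 minutes out of 9 PRO-seq libraries in the series. The cells were Firre knockouts that carried a Firre transgene under inducible control, and the 3 libraries were chosen by the 0 minutes in their names. Their treatment label reads no doxycycline in all 3, while the titles of libraries 1 and 3, unlike that of library 2, also hold the word dox. They were kept on gelatin, in serum with LIF, the MEK inhibitor PD0325901 and the GSK3 inhibitor CHIR99021. The promoter of the transgene, the number of clones and whether the 3 libraries came from separate cultures are not given in the labels, so the spread between libraries may be technical in part. They are called libraries 1, 2 and 3 after their labels.

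PRO-seq labels the RNA that engaged polymerases extend during a short run-on in isolated nuclei, so its reads mark where polymerases sit rather than how much stable RNA a gene leaves. Active promoters and enhancers of mammals usually fire in both directions, and polymerase II often pauses just after it starts. Stem cells held with LIF and inhibitors of MEK and GSK3 stay close to the naive state of the early embryo, divide fast and keep the genes of the embryonic lineages at low levels.

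Reads were counted in 174289 windows of 600 bp, each centred on a bidirectional region on mm10. Because every window has the same length, levels of windows can be set side by side, as the count divided by the library's total over all windows and scaled to 1000000 reads (CPM). The totals were 5518443, 4426619 and 3813365 reads in libraries 1, 2 and 3, which is the depth within windows and not the sequenced depth. A count of 3 equalled 0.544, 0.678 and 0.787 CPM in the same libraries. The median coefficient of variation (CV) between libraries was 36.8% for windows of 1 to 5 CPM and 7.67% for windows of 100 CPM and more. Both medians lay above the error expected from counting alone at those counts, 34.0% and 3.82%. That error is an expected value and not a median over sets of 3 libraries, so the size of the excess is not given. Log2(CPM + 1) values of the libraries correlated with Pearson's r from 0.95 to 0.955, across 174289 windows that are not independent.

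Firre, an X-linked gene of a long non-coding RNA that stays in the nucleus, was checked first because it was deleted. Over its 8 windows Firre had 14, 22 and 10 reads in libraries 1, 2 and 3, a sum of 2.54, 4.97 and 2.62 CPM and a mean of 3.38 ± 1.38 CPM (SD, n = 3 libraries). All 8 windows were low, with 0 to 8 reads each, and none stood above 2 CPM in any library. The highest by its mean, chrX:50569537-50570136, had 0.725, 1.13 and 1.84 CPM. The window that overlaps it, chrX:50569985-50570584, had 0.906, 1.81 and 0.262 CPM, more in libraries 1 and 2 and less in library 3. Reads of the transgene and of what is left of the locus cannot be told apart where their sequence is the same.

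The cell type on the label was checked against marker genes. Nanog, a regulator of the pluripotent state, had 317, 356 and 287 CPM in libraries 1, 2 and 3. Sox2, its partner in the same network, had 277, 257 and 301 CPM. Both stood far above the median of 10.7 CPM over the 20630 genes with a window at an end. Of 13 core pluripotency genes with such a window 6 were among the highest 5% in every library, as were 4.35% of all genes. Not all were high: Dppa4, at 2.15 CPM, and Lin28a, at 6.16 CPM, lay below 10.7 CPM. Markers of fibroblast feeder cells were near the floor. Only 4 of 12 had a window at a gene end, these summed to 7.25, 6.78 and 10.2 CPM in libraries 1, 2 and 3, and the collagen gene Col1a1 had 0.181, 0.226 and 0 CPM. Pou5f1, the gene of the pluripotency factor OCT4, had no window in the deposited region list and was not measured here. It lies on chromosome 17, for which the list holds 1128 windows (0.647% of all).

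Library 1 stood apart at a small set of narrow regions. Of 3986 windows with a mean of at least 50 CPM, 45 had less than 0.6 of the mean of the other libraries in library 1, against 18 in library 2 and 2 in library 3. Of those 45, 32 had a called region of 400 bp or less before it was set to 600 bp, while 173 of all 3986 did. The small RNA genes Rn7s2, Rn7s1 and Rmrp were among them. Each result that rests on such a window is given with every library's value.

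Gene ends carried the largest share of the nascent signal. A window was placed at a gene end when its centre lay within 1 kb of either end of an annotated gene, since the annotation used for this gave no strand. These 28413 windows were 16.3% of all windows and held 51.7%, 49.7% and 50.5% of the reads in libraries 1, 2 and 3, a mean of 50.6 ± 1.00% (SD, n = 3). Windows inside genes were 42.4% of all (73947) and held 28.3 ± 0.457% of the reads. Windows outside genes were 41.3% (71929) and held 21.1 ± 0.575%. The order of the classes was the same in every library, and their shares differed by far more than the spread between libraries. With 3 libraries an exact paired permutation test cannot give a p under 0.25, so no test of these shares is given. The median window had 2.91 CPM at gene ends, 0.531 CPM inside genes and 0.434 CPM outside genes.

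**Figure D1:**
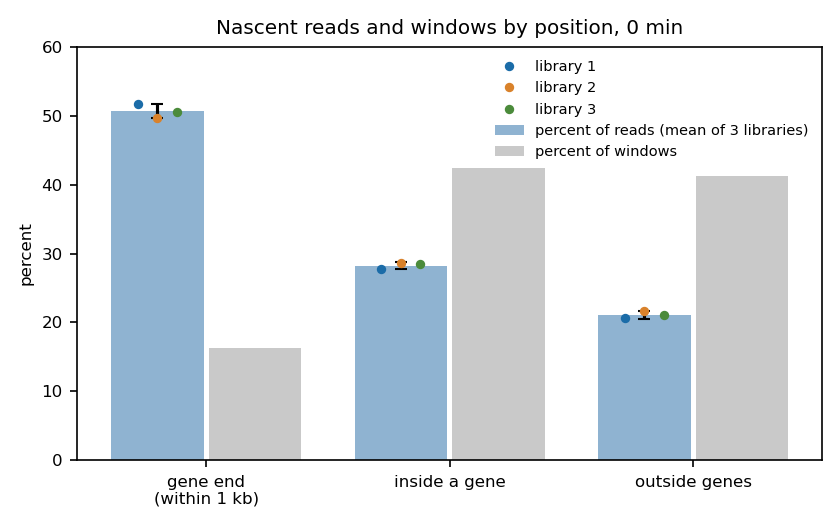
Percent of reads (left bar of each pair, mean of 3 libraries with SD and a point per library) and percent of windows (right bar) for windows at gene ends, inside genes and outside genes at 0 min. Gene ends held 50.6% of reads in 16.3% of windows, while windows outside genes held 21.1% of reads in 41.3% of windows.

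A level of 10 CPM or more in every library was reached by 17147 windows, 9.84% of all 174289. At gene ends 8530 windows did so (30.0%), inside genes 4998 (6.76%) and outside genes 3619 (5.03%), so the last 2 classes stood below the share over all windows. At the other end, 16584 windows (9.52%) had no read in any of the 3 libraries. Regions called wide held more signal per 600 bp. The median was 0.242 CPM for the 21009 regions of up to 200 bp and 16.6 CPM for the 4485 regions over 2000 bp, which alone held 20.1 ± 0.661% of the reads.

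By kind of gene, ends named for protein-coding genes held 40.5 ± 1.39% of all reads. Of 21883 protein-coding genes 12954 (59.2%) had a window at an end, with a median of 18.5 CPM. Genes of long non-coding RNAs (lncRNAs) were lower, with a median of 2.59 CPM over 4973 genes and 6.36 ± 0.132% of the reads. Transfer RNA genes, which polymerase III transcribes, had a window in 249 of 408 cases and a median of 15.96 CPM. The 119 genes of small nuclear RNAs (snRNAs) with a window had a median of 1.28 CPM, 13 of them were among the highest 5% of genes in every library, as were 897 of all 20630 genes (4.35%), and the 142 windows named for them held 1.03 ± 0.183% of all reads.

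Starts of genes were then set apart from their other ends with the RefSeq promoter table, which gives strand and covers every chromosome measured but 18. Windows centred within 300 bp of a start were 6.09% of windows and held 31.2 ± 1.24% of the reads. Those within 1 kb of a start were 10.1% of windows and held 41.1 ± 1.57%. Windows at a gene end but over 1 kb from any start in that table were 7.70% of windows and held 13.96 ± 0.407%. The table holds starts of 27025 genes, while gene ends were set with 49939 genes. Some of these windows may thus lie at starts it does not hold. The mean window had 33.8, 32.1 and 31.5 CPM in libraries 1, 2 and 3 at 0 to 200 bp before a start, and 30.7, 27.9 and 28.9 CPM at 0 to 200 bp after it. It had 4.03, 4.62 and 4.63 CPM at 1800 to 2000 bp before a start. The signal was thus highest at starts. Windows up to 1 kb before a start held 22.0 ± 0.665% of the reads and those up to 1 kb after it 19.05 ± 1.01%.

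**Figure D2:**
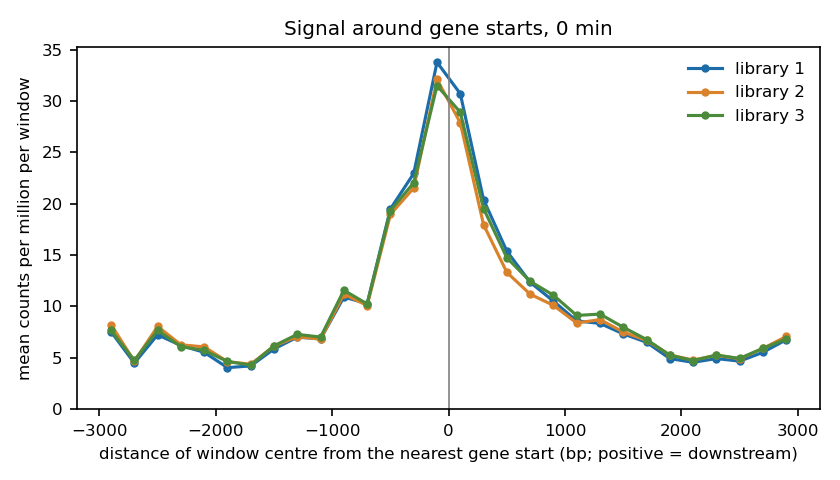
Mean CPM per window against the distance of the window's centre from the nearest gene start, in bins of 200 bp, with a line for each of the 3 libraries. All libraries peak in the bin just before the start, at 31.5 to 33.8 CPM, and lie between 4.03 and 4.63 CPM in the bin from 2000 to 1800 bp before it.

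The signal was concentrated in few windows. The 100 highest windows (0.0574% of all) held 7.80 ± 0.691% of the reads, the 1000 highest held 24.4 ± 1.04% and the 10000 highest held 66.4 ± 0.406%. Of the 100 highest, 69 lay at gene ends, 16 inside genes and 15 outside genes. In each library's own order 84 windows were among the 100 highest of all 3 libraries. Of the 100 highest windows at gene ends, 20 lay at histone genes and 16 at genes of cytosolic ribosomal proteins. At snRNA genes lay 13 and at genes of small nucleolar RNAs (snoRNAs) 13, and a window can count under several kinds. Over all 28413 gene-end windows these kinds made up 0.169%, 0.239%, 0.574% and 0.500%, in that order. Protein-coding genes had 82 of the 100, against 63.9% of all, and lncRNA genes 13, against 29.9%.

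Replication-dependent histone genes led the list. Their proteins package newly made DNA, and the genes lie in clusters in which neighbours often share a start region and are read away from each other. The highest window of all, chr13:21833406-21834005, lay between H4bc24 and H2ac24, genes of histones H4 and H2A, and had 2414, 2408 and 2123 CPM in libraries 1, 2 and 3. It was the highest window at a gene end in library 1 and was passed by the window at Rn7s2 in libraries 2 and 3. H2ac19, an H2A gene on chromosome 3, had 1791, 1855 and 1683 CPM. The shared start of H2ac11 and H2bc11 (chr13:22042601-22043200) had 1684, 1749 and 1427 CPM, and that of H2ac23 and H2bc23 had 1646, 1658 and 1378 CPM. H3c11, an H3 gene, had 1426, 1587 and 1309 CPM. These 5 windows lay above 1000 CPM in every library, over 100 times the median of all genes.

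The other histone windows among the 25 highest lay at H3c3 with H2bc3 (1401 ± 187 CPM), H2ac18 (1331 ± 110.2 CPM), H2ac12 with H2bc12 (1174 ± 118 CPM) and H2bc13 with H2ac13 (1149 ± 67.8 CPM). Next came H2ac6 with H2bc4 (1018 ± 157 CPM), H2ac8 with H2bc8 (983 ± 167 CPM), H2bc7 with H2ac7 (980.2 ± 84.2 CPM), H2ac15 with H2bc15 (952 ± 193 CPM) and H2bc14 with H2ac14 (916 ± 121 CPM). All errors here are SDs over the 3 libraries. H2ax, which makes the H2A variant that marks DNA breaks, shared a window with Dpagt1 at 951, 1089 and 943 CPM. The copies of 1 histone type are nearly identical in sequence, and how reads that match several copies were counted is not given in the sources used here, so the split between copies is uncertain. Of 52 annotated genes on the list of replication-dependent histones, which leaves out several histone genes (H4bc24, H2ac24, H2ac23, H2bc23 and H2ac7 among them), 31 had a gene-end window, in 20 distinct windows, and 29 of the 31 were in the top 5% of genes in every library, against the 4.35% of all genes. The 20 windows summed to 17864, 19859 and 15972 CPM. The lowest on the list was H1f0, at 102, 98.9 and 99.9 CPM. It makes a linker histone known to be made independently of DNA replication, so it does not belong to the class the list is named for.

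Genes of small RNAs named 8 of the other 10 windows, and library 1 was the lowest of the 3 libraries at all 8. Rn7s2, a gene of the 7SL RNA of the signal recognition particle, had 502, 2845 and 2736 CPM in libraries 1, 2 and 3. The window shared by its copy Rn7s1 and Rps29 had 355, 1585 and 1504 CPM. The other libraries were over 4 times as high as library 1 at both, and both regions were narrow (140 and 296 bp before widening). Rnu3a, a gene of the U3 snoRNA that acts in the processing of ribosomal RNA, shared a window with Gtf3c6 at 1351, 2064 and 2029 CPM. Annotated snRNA genes named 3 windows of 1 stretch on chromosome 11. Gm24950 had 1412, 2209 and 1701 CPM, the window of LOC115487916 and Rdm1 had 1424, 1961 and 1577 CPM, and Gm23971 had 1033, 1731 and 1255 CPM. These 3 windows overlapped in their library values. Gm22317, an snRNA gene on chromosome 12, had 914, 1091 and 978 CPM. The annotation names a snoRNA, LOC115488833, and the lncRNA Rab26os at chr17:24528175-24528774, a window that also lies at ends of Traf7 and Rab26 and had 957, 1133 and 1016 CPM.

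The other 2 of the 25 windows, at Hexim1 and Elobl, lay at the end of neither a histone gene nor a small RNA gene. Hexim1 makes an inhibitor of P-TEFb, the kinase that releases paused polymerase II, and had 1073, 1107 and 1189 CPM. Elobl, annotated as an elongin B-like gene, had 769.8, 1008 and 986 CPM, with its window 996 bp from the gene's end. In 0 of 24 pairs of neighbours in this order did the higher window exceed the next in every pairing of libraries, so the exact order is not resolved.

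**Figure D3:**
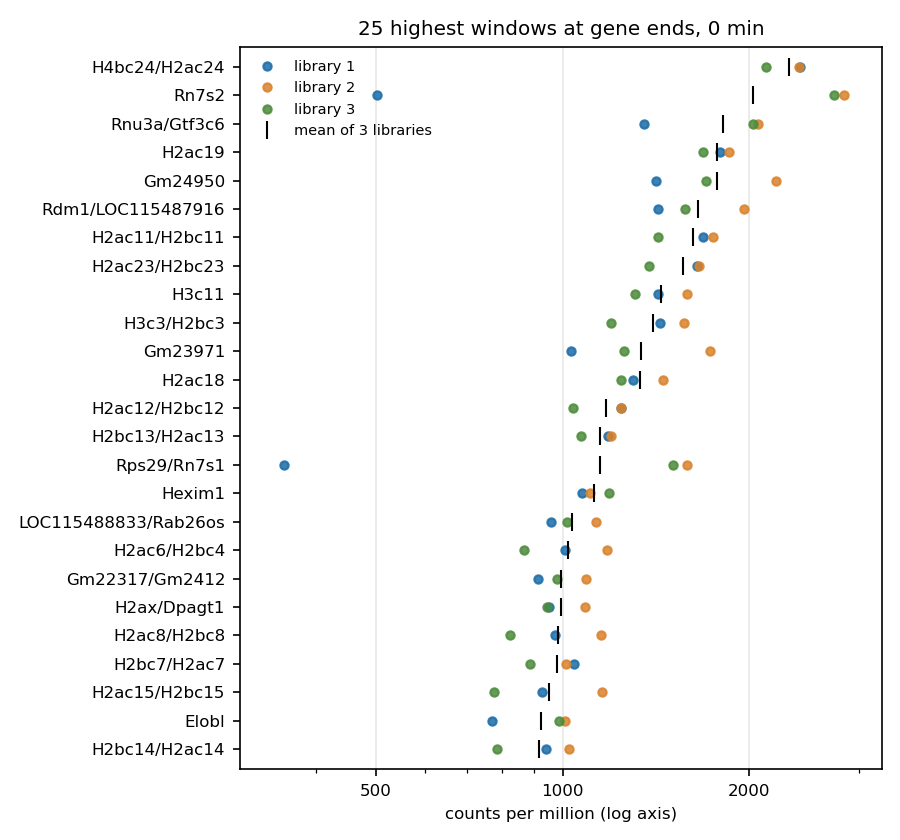
CPM of the 25 highest windows at gene ends in each of the 3 libraries (points, log axis) with their mean (tick), named by the nearest gene ends. The 15 windows of histone genes lie between 774 and 2414 CPM, and the points of library 1 at Rn7s2 and at Rps29/Rn7s1, 502 and 355 CPM, lie far left of the other libraries.

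The start regions of 6 genes are shown because each stands for a functional group that held high windows, and were chosen after their values were seen. The histone genes are H4bc24 and H2ac6, Eef1a1 and Rpl13a stand for translation, Srsf2 for splicing and Fgf4 for the pluripotent state. Each run is read on the gene's strand from 200 bases before the annotated start to 20 bases from it (RefSeq, GRCm38.p6). Capitals mark the TATA box, spelled TATAAA here, the CCAAT box by its own letters, and the GC box, spelled GGGCGG, on either strand. A box on the other strand is printed as its reverse complement. They also mark CTTTC or CTTCC within 10 bases of the start in the translation genes, whose messages are known to begin with a pyrimidine run. The intervals are chr13:21833543-21833762, plus strand, for H4bc24, chr13:23683940-23684159, minus strand, for H2ac6, chr9:78481705-78481924, minus strand, for Eef1a1, chr7:45128726-45128945, minus strand, for Rpl13a, chr11:116853075-116853294, minus strand, for Srsf2, and chr7:144861186-144861405, plus strand, for Fgf4.
H4bc24: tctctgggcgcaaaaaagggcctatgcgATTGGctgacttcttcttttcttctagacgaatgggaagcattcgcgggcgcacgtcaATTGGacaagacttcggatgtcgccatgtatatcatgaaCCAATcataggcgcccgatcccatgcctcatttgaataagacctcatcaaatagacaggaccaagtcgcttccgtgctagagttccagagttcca
H2ac6: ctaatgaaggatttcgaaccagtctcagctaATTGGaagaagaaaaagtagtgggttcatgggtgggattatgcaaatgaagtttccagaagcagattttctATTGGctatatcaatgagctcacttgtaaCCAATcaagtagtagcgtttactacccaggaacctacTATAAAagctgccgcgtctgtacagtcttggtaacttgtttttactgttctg
Eef1a1: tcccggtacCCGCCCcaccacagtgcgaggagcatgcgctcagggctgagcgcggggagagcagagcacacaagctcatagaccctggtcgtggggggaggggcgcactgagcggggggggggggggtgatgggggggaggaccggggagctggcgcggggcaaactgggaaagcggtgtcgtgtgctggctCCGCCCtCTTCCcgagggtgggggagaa
Rpl13a: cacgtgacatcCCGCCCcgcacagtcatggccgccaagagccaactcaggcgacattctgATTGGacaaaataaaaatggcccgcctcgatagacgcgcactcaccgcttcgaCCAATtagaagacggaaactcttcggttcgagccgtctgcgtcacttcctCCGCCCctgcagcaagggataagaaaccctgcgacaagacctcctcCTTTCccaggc
Srsf2: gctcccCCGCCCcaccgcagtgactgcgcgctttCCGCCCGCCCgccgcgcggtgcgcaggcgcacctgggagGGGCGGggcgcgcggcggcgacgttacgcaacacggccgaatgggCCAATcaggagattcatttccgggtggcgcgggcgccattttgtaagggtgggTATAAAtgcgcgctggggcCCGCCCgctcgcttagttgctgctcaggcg
Fgf4: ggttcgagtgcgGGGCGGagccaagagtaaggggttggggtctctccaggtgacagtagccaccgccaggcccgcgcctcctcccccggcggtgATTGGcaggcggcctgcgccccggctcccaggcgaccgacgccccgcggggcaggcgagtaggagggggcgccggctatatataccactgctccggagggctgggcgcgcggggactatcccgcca

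In these runs H4bc24 holds 3 CCAAT boxes and no TATA box, and H2ac6 holds 3 CCAAT boxes and a TATA box that begins 32 bases before the start. Srsf2 holds a TATA box 29 bases before the start, a CCAAT box and 5 GC boxes, some of which overlap. Eef1a1 and Rpl13a each hold 2 GC boxes, Rpl13a also 2 CCAAT boxes, and Fgf4 a CCAAT box and a GC box. In Eef1a1 the run CTTCC begins 1 base before the start, and in Rpl13a the run CTTTC begins 9 bases after it. Over the whole 300 bp of the table, CCAAT occurred on either strand in 88.9% of the 27 histone promoters with a window within 1 kb, against 37.4% of all 32851 promoters. Where neighbouring histone genes share a start region, 1 box can count for both, so these 27 promoters are not independent. TATAAA occurred anywhere in the 300 bp in 55.6% of them, against 13.6% of all. On the sense strand, in the short stretch before the start where H2ac6 and Srsf2 hold theirs, it occurred in only 11.1% of them, against 1.99% of all. GGGCGG was less frequent in histone promoters than among the 661 measured genes of the highest 5%, at 40.7% against 67.6%, and stood at 35.7% among all promoters. CTTTC or CTTCC on the sense strand within 10 bases of the start was found in 23.3% of 43 ribosomal protein promoters and in 6.89% of all promoters. Measured promoters were richer in CpG than all promoters, with a median of 20 against 7 in 300 bp. These matches describe letters and not bound sites.

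Of the 12 highest windows inside genes 7 lay on chromosome 11. The highest was in 2610005L07Rik, an annotated gene of unknown role on chromosome 8 (chr8:20394889-20395488), with 1112, 1275 and 1263 CPM. Pigl, which makes an enzyme of GPI anchor synthesis, held a window of 934, 1070.1 and 966 CPM, and the window in Lrrc75a had 830.1, 821 and 1020.1 CPM. Ubtf, which makes the factor that directs polymerase I to ribosomal RNA genes, had 789, 728 and 847 CPM, in a window centred 579 bp before an annotated start of the gene. Pfn1, the gene of the actin-binding protein profilin, had 579.5, 499 and 554 CPM, likewise 570 bp before a start. The window in Slc25a39, a gene of a mitochondrial carrier, had 430.2, 462 and 433 CPM and lay 24 bp before a start. Such windows count as inside because the annotated extent of the gene reaches more than 1 kb past them. Of 71379 windows inside genes on the chromosomes of the promoter table, 2429 (3.403%) lay within 1 kb of a start and held 14.8 ± 1.01% of the reads inside genes.

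The other windows among the 12 lay in Osbpl1a (662 ± 45.3 CPM), Gm11613 (549.6 ± 15.2 CPM), Spats1 (534 ± 63.4 CPM), Phf23 (499 ± 29.7 CPM) and Gm9886 (481 ± 23.98 CPM). The CV between libraries was 2.76% to 12.6% for 11 of the 12, and 45.2% for the window in Iqcg, which had 224, 609.9 and 559 CPM, with library 1 the lowest. Its reads, 1234, 2700 and 2133, were almost the same numbers as the 1232, 2696 and 2129 reads of a window outside genes on chromosome 6, near LOC115490435. No other pair among the 167 windows of at least 300 CPM that lay apart from each other differed by 5 reads or fewer in every library, a limit chosen after the values were seen. Whether reads that match several places were counted in each is not given in the sources used here.

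Outside genes, the highest window by far, chr6:124476307-124476906, lay 11.8 kb from the end of Clstn3, a gene of a synaptic adhesion protein, between it and Gm44096. It had 1214, 1279 and 1228 CPM in libraries 1, 2 and 3, more than every other window outside genes in every library, while the window at the end of Clstn3 itself had a mean of 34.5 CPM. The next, chr11:20139862-20140461, lay between Actr2, which makes a subunit of the actin-nucleating complex, and Gm12030, and had 647, 782 and 694 CPM. A window 11.9 kb from Rps6ka1, the gene of a kinase that acts below ERK, had 544, 589.6 and 576 CPM. The gene's own end had a mean of 42.8 CPM. Near Ppp1r12a, whose product is a subunit of myosin phosphatase, a window 14.7 kb away had 517, 547 and 579 CPM, against a mean of 43.4 CPM at the gene's end. At these 3 loci the window outside the gene was thus over 10 times as high as that at the gene's end.

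Some of the 15 highest lay shortly before a gene start. The window 2.41 kb before Kpnb1, the gene of importin beta, had 493, 499 and 504 CPM. The window 1.01 kb before Castor1, the gene of an arginine sensor of the mTOR pathway, had 472, 465 and 485 CPM. Windows near predicted genes followed, at Gm9320 (581 ± 25.8 CPM), Gm36005 (549 ± 40.7 CPM), Gm30701 (490.3 ± 19.3 CPM), A730036I17Rik (467 ± 49.8 CPM) and, between Rpl30-ps6 and Ptma, 433 ± 31.4 CPM. The window 2.43 kb from Erdr1 on the X chromosome had 404, 495 and 581 CPM. Libraries disagreed at 3 narrow regions of this list. Ccnd3-ps had 251, 242 and 787 CPM, high in library 3, and the windows at LOC115490435 (223, 609 and 558 CPM) and Tcf7l1 (183, 489 and 562 CPM) were low in library 1.

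With distance from gene ends, the share of reads per window became lower. Windows 1 to 5 kb away were 21.5% of those outside genes and held 6.73 ± 0.221% of all reads, and those 5 to 15 kb away were 33.8% and held 7.24 ± 0.196%. At 15 to 50 kb 21376 windows (29.7%) held 4.96 ± 0.118%, at 50 to 150 kb 8578 windows held 1.74 ± 0.0711%, and beyond 150 kb 2196 windows held 0.425 ± 0.0296%. A level of 10 CPM in every library was reached by 7.68%, 4.90%, 4.03%, 3.53% and 3.32% of the windows in these 5 classes, from near to far. The median window lay between 0.377 and 0.524 CPM in all 5.

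Far from genes, at more than 15 kb from any gene end, 5 of the 10 highest windows had close values in all libraries, with CVs of 2.34% to 6.79%. A window at chr1:86503602-86504201, 22.7 kb from Ptma, the gene of prothymosin alpha, had 356, 344 and 339.9 CPM. Ptma had 6 windows outside genes nearest to it, which summed to 885, 925 and 890 CPM, beside a mean of 569 CPM at its own end. A window 21.6 kb from Impa2, which makes an inositol phosphatase, had 334, 365 and 365 CPM. The window 23.9 kb from Tmem64 had 259, 292 and 292 CPM, and the one 18.2 kb from Ggnbp1 had 241, 262 and 250.2 CPM. Between Gm12029 and Spred2, the gene of an inhibitor of ERK signalling, a window 53.4 kb from the nearer end had 267, 237 and 246 CPM. Spred2 was the nearest coding gene of 25 windows outside genes, which summed to 621, 569 and 587 CPM. Its own end had a mean of 42.8 CPM, in 1 window and not a sum. Sums by nearest gene were looked at after the values were seen.

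The remaining distal windows varied more. Those near Tcf7l1, LOC115489968 (221, 365 and 523 CPM) and Klrb1c (127, 284 and 303 CPM) were lowest in library 1 and came from regions of 84, 104 and 216 bp. Gm13246 had 182, 240.1 and 222 CPM and Gm18984 had 182, 262 and 196 CPM. Without library 1, 15 of the 15 highest windows outside genes remained in the highest 15. The nearest gene is a matter of position, and no target of any of these regions was measured.

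**Figure D4:**
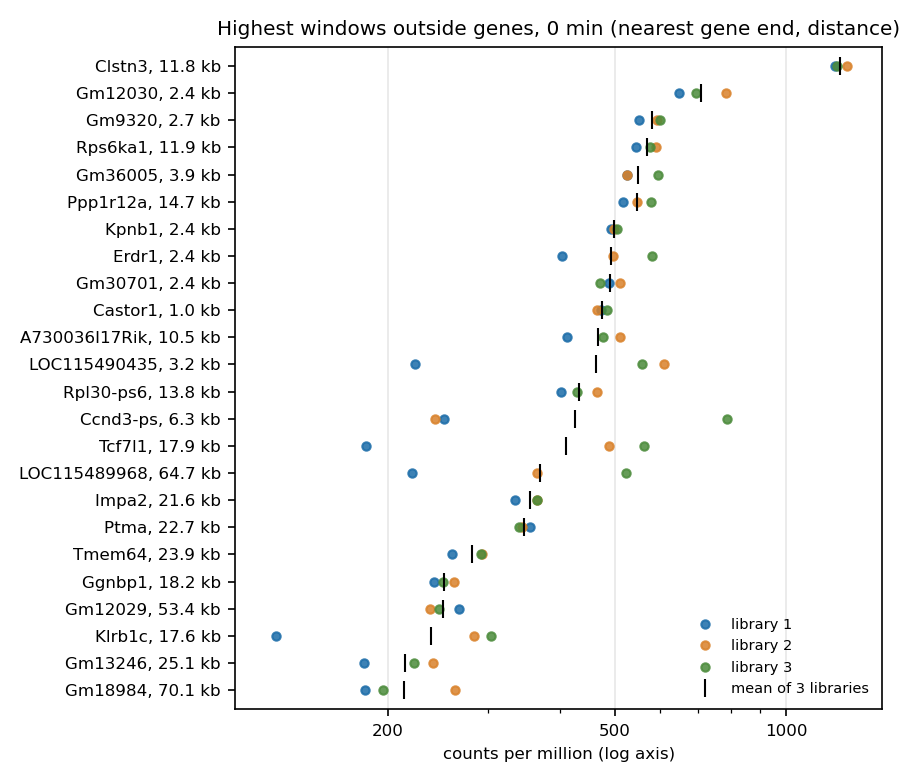
CPM in each of the 3 libraries (points, log axis) and their mean (tick) for the 15 highest windows outside genes and, below them, the further windows more than 15 kb from a gene end, named by the nearest gene end and its distance. The window near Clstn3 lies at 1214 to 1279 CPM in every library, and the points of library 1 lie apart at LOC115490435, Tcf7l1, LOC115489968 and Klrb1c.

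To describe the signal by gene function, each gene was given its highest window at an end, and 41 lists of genes were read against all 20630 genes with such a window. Of 671 distinct list genes with a window 185 were in the top 5% in every library, against the 4.35% of all genes given above. A window shared by neighbouring genes counts for each of them, as it did for 235 of the 671. The lists were chosen for what the genes do in such cells, so these shares are descriptions and not tests.

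Genes of protein synthesis stood high. Of 79 genes of cytosolic ribosomal proteins 64 had a window, with a median of 187 CPM, and 46 of 64 were in the top 5%. After Rps29, whose window also covers Rn7s1, the highest were Rpl13a (794, 925 and 979 CPM in libraries 1, 2 and 3) and Rpl36 (697, 702 and 787 CPM), both in windows shared with a neighbour. Rpl38 was the lowest, at 6.29 ± 0.489 CPM in a window centred 475 bp from an end of the gene. Host genes of snoRNAs, whose introns carry RNAs that guide the modification of ribosomal RNA, had a median of 194 CPM, with 12 of 16 in the top 5%. Gas5 had 751, 758 and 759 CPM, a spread of under 1%, and Snhg3 had 451, 491 and 452 CPM. The window of Snhg9 (797, 839 and 962 CPM) is also centred 9 bp from the start of Rps2, which had no window at an end. Snhg11 had 7.34 ± 1.18 CPM.

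Among translation factors Eef1a1, which brings transfer RNAs to the ribosome, had 902, 869 and 904 CPM. The helicase gene Eif4a2 had 709, 664 and 724 CPM and Eif1 had 341, 362 and 382 CPM. The gene of the cap-binding factor, Eif4e, had 18.7, 11.1 and 10.8 CPM, but in a shared window centred 942 bp from an end of the gene. The list's median was 71.1 CPM and 9 of 25 were in the top 5%. Nucleolar factors that build ribosomes were lower, with a median of 52.04 CPM and 3 of 17 in the top 5%. Nop56, a core protein of snoRNA particles, had 493, 506 and 489 CPM, Npm1 171 ± 13.6 CPM, Dkc1 139 ± 19.8 CPM and Gar1 7.52 ± 1.89 CPM. Mitochondrial ribosomal proteins had a median of 37.7 CPM over 27 genes and 1 in the top 5%, Mrpl12 at 255 ± 22.5 CPM, a share close to that of all genes. The cytosolic set thus had a median over 4 times that of the mitochondrial set.

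Splicing factors had a median of 88.7 CPM and 11 of 31 in the top 5%. Srsf2 led with 612, 655 and 584 CPM, then Ptbp1 (263, 229 and 299.7 CPM) and Srsf1 (255, 258 and 249.6 CPM), and Hnrnpf was lowest at 11.6 ± 2.48 CPM. Spliceosomal and processing RNAs made by polymerase II had a window at 5 of 16 genes. The U1 genes Rnu1b2 and Rnu1b1 had 815, 999 and 885 CPM and 322, 498 and 519.8 CPM, the second in a window 881 bp from it, and the telomerase RNA gene Terc had 33.4 ± 1.27 CPM. Of the small RNAs made by polymerase III, Rmrp, the RNA of RNase MRP, had 513, 1163 and 779 CPM in a window shared with Ccdc107, and Rn7sk had only 1.28 ± 0.340 CPM in a window that overlaps only its 3' part. Subunits and regulators of polymerase II had a median of 51.4 CPM. Beside Hexim1, Cdk12 had 322 ± 11.9 CPM and Polr2a, the largest subunit, 206, 198 and 206 CPM, and Ctr9 was lowest at 7.65 ± 1.6996 CPM. Factors reported to bind Firre RNA had 4 of 7 genes measured. Ptbp1, Hnrnpa1 (168, 169 and 168 CPM) and the lamin gene Lmnb1 (138, 128 and 136 CPM) were in the top 5%, and Ctcf had 34.2 ± 3.99 CPM. Hnrnpu and Ybx1 had no window at a gene end, and their highest windows inside, 44 and 108 bp from a start, had 81.96 ± 7.997 CPM and 51.9 ± 6.93 CPM.

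Housekeeping genes of metabolism and protein care ranged from under 1 CPM to over 800 CPM. Cytosolic and mitochondrial chaperones had a median of 97.9 CPM and 9 of 26 in the top 5%. Hsp90aa1 had 579.7, 571 and 603 CPM, Hsp90ab1 289.9 ± 10.8 CPM and Hspa4 237 ± 16.03 CPM, while the stress-induced Hspa1b had 11.6 ± 1.08 CPM. In glycolysis the median was 56.5 CPM, with 3 of 14 in the top 5%. Gapdh led at 836, 794 and 841 CPM, followed by the glucose carrier Slc2a1 at 211 ± 14.8 CPM and Eno1 at 139 ± 18.8 CPM, with Slc16a1 lowest at 21.4 ± 6.7002 CPM. Oxidative phosphorylation, with a median of 39.96 CPM and 3 of 22 in the top 5%, was led by Ndufs1 (187 ± 19.2 CPM), Atp5b (161 ± 16.6 CPM) and Ndufb2 (122 ± 3.89 CPM), with Sdhb at 17.9 ± 5.102 CPM. The list of proteasome and ubiquitin genes had a median of 44.1 CPM, with 2 of 24 in the top 5%. Psmd2 had 132, 114 and 129 CPM and Psmc5 107 ± 9.55 CPM, with Psmc4 lowest at 16.5 ± 3.19 CPM. Of the cytoskeleton 4 of 16 were in the top 5%, and tubulin genes were the highest, with 699.8, 723 and 749 CPM at Tubb4b and 374, 437 and 358 CPM at Tuba1b. Tmsb10 had 206 ± 9.82 CPM and Tpm3 0.284 ± 0.0707 CPM. Actb had no window at a gene end, and its highest window inside the gene had 285, 249 and 269 CPM. In cholesterol synthesis, with 2 of 20 in the top 5%, the regulator gene Insig1 was the highest (183 ± 25.3 CPM), and the transcription factor gene Srebf2 had 66.2 ± 4.81 CPM.

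Cell cycle and chromatin genes had medians above that of all genes, from 34.9 CPM for DNA replication to 54.01 CPM for the Polycomb group. In DNA replication the licensing factor gene Cdt1 had 228, 245 and 253 CPM, and Slbp, whose product binds the histone message's stem-loop, had 253, 239 and 209.8 CPM. Mcm7 had 221 ± 21.6 CPM and Mcm3 5.56 ± 1.69 CPM, and 5 of 21 genes were in the top 5%. In mitosis, with 2 of 20, Top2a had 244 ± 12.6 CPM, Kif20a 178 ± 5.48 CPM, Ccna2 91.8 ± 20.3 CPM and Tpx2 7.102 ± 1.61 CPM. Of Polycomb group genes 4 of 23 were in the top 5%. Phc1 (169, 202 and 214 CPM), Rbbp4 (193 ± 13.3 CPM) and Epop (176 ± 26.4 CPM) were highest. Chromatin factors, with 2 of 22, ran from Arid1a (156 ± 17.8 CPM), Uhrf1 (134 ± 10.2 CPM) and Ehmt2 (104 ± 6.06 CPM) to Kat5 (3.24 ± 1.22 CPM). Among replication-independent histones H2az1 had 177 ± 17.03 CPM, H3f3a 66.1 ± 15.2 CPM and H2az2 24.3 ± 5.32 CPM. Of lncRNA genes 3 of 17 were in the top 5%. The nuclear RNAs Neat1 (400.5, 400.1 and 398 CPM) and Malat1 (128, 167 and 129 CPM) and the stem cell transcript Platr14 (149 ± 7.84 CPM) led, and the imprinted H19 had 0.269 ± 0.272 CPM.

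**Figure D5:**
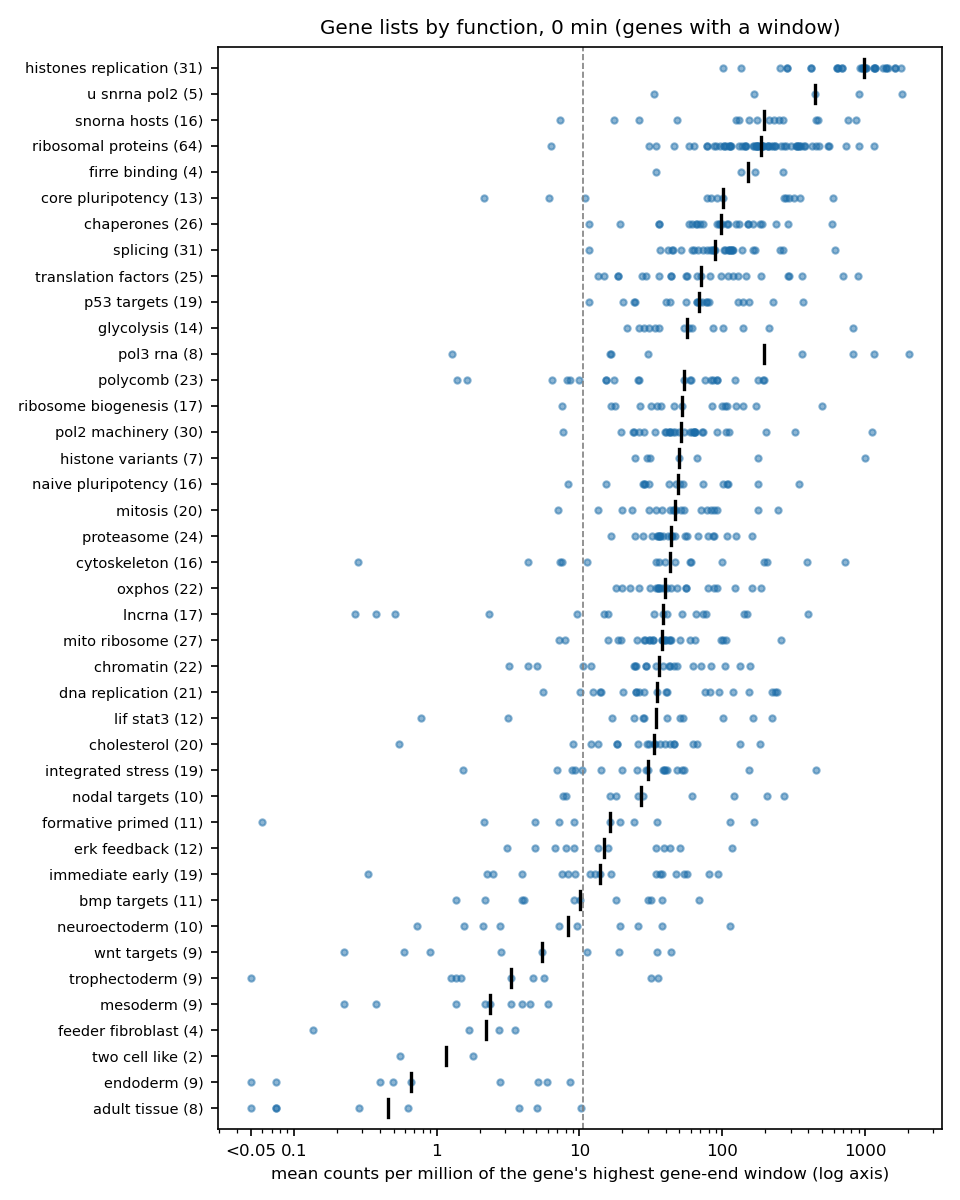
Mean CPM (log axis, 3 libraries) of each list gene's highest window at a gene end, with 1 row per list in order of the median percentile of its genes, a point per gene and a bar at the list's median (genes below 0.05 CPM are drawn at the left end). The dashed line is the median of all 20630 genes, 10.7 CPM, and the number of genes with a window stands in brackets.

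Pluripotency genes covered a range of over 100-fold. Of the 13 measured core genes 6 were in the top 5%, with a median of 100.4 CPM. Dppa5a, a marker of pluripotent cells, was the highest with 564, 601 and 630.2 CPM in libraries 1, 2 and 3. Trim28, which silences endogenous retroviruses, had 338, 329 and 373 CPM in a shared window. Nanog, Utf1 (295 ± 32.97 CPM), Sox2 and Tdgf1 (271 ± 22.8 CPM) followed. Their libraries overlapped, so the order of these 4 is not resolved. Dppa4 was near the floor, at 1.45, 3.16 and 1.84 CPM, and Lin28a had 6.16 ± 0.765 CPM in a window centred 453 bp from an end of the gene.

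Genes of the naive state, which the 2 inhibitors and LIF uphold, had a median of 49.02 CPM, with 3 of 16 in the top 5%. Fgf4, the ligand that drives ERK signalling in these cells, had 346, 310.2 and 377 CPM. The regulators Tbx3 and Klf2 had 166, 178 and 190.1 CPM and 111, 107 and 111 CPM. Prdm14 had 108 ± 5.83 CPM, Nr0b1 73.3 ± 4.24 CPM, Klf4 53.1 ± 8.01 CPM, Tfcp2l1 50.8 ± 4.799 CPM, Zfp42 30.8 ± 5.62 CPM and Dppa3 8.36 ± 2.06 CPM. Esrrb had no window at an end, and the highest of its 18 windows had 145, 169 and 147 CPM. Klf4 was the nearest coding gene of 31 windows outside genes that together had a mean of 504 CPM. The highest of the 31 had a mean of 254.5 CPM, against 53.1 CPM in the window at Klf4's own end. That window is shared and centred 685 bp from an end of the gene. Genes of the formative and primed states were lower, with a median of 16.3 CPM. Zic2 (171, 143 and 187 CPM), Zic5 (114 ± 11.4 CPM) and Lef1 (34.8 ± 5.795 CPM) led them, and Fgf5 had 1 read in library 1 and none in the others.

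Of LIF and STAT3 targets 2 of 12 were in the top 5%. Bcl3 had 244, 196 and 223 CPM, Pim3 194, 121 and 177 CPM and Pim1 117, 86.7 and 98.6 CPM, while Lifr, the receptor, had 0.772 ± 0.362 CPM. Socs3 and Mcl1, counted inside their genes but 33 and 114 bp from a start, had 139.9, 101 and 122 CPM and 427, 339 and 439 CPM. Of the Nodal pathway 3 of 10 were in the top 5%. These were the co-receptor gene Tdgf1, the inhibitor gene Lefty2 (219, 204 and 198 CPM) and the ligand gene Nodal (119, 131 and 113 CPM), and Foxh1 had 7.63 ± 2.13 CPM. Targets and feedback inhibitors of ERK had a median of 14.8 CPM, above the 10.7 CPM of all genes, and none of 12 in the top 5%, a share close to that of all genes at this number. Spry2 had 125, 95.1 and 132 CPM, Spry1 50.8 ± 9.11 CPM, Spred2 42.8 ± 5.16 CPM and Spry4 3.13 ± 0.675 CPM. Immediate early genes had none of 19 in the top 5%, close to the 4.35% of all genes. Jund, which had no window at a gene end, had 275, 171 and 228 CPM at its highest window inside, above those with one. Dusp1 had 118, 61.7 and 99.9 CPM, lowest in library 2, Btg2 80.7 ± 8.89 CPM, Klf6 56.2 ± 13.3 CPM and Egr3 0.329 ± 0.367 CPM. Of BMP targets Smad7 had 68.9 ± 5.84 CPM, Id4 38.1 ± 3.68 CPM, Id2 31.9 ± 2.67 CPM and Atoh8 1.37 ± 0.404 CPM. None of 11 was in the top 5%, at this number again close to the share of all genes.

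Targets of WNT, a pathway that inhibition of GSK3 turns on, had a median of 5.51 CPM over 9 genes, below the median of all genes. None of the 9 was in the top 5%, which at this number is close to the 4.35% of all genes. Ccnd1 had 44.03, 48.8 and 38.8 CPM, Lef1 the value above, Tcf7 18.9 ± 6.69 CPM and Cdx1 0.226 ± 0.391 CPM. Axin2 had no window at a gene end and 22.1 ± 2.16 CPM at its highest window inside. Targets of p53 had a median of 68.5 CPM and 5 of 19 in the top 5%. Trp53 itself had 333, 364 and 404 CPM in a shared window, Gadd45b 226 ± 21.96 CPM, Sesn2 153 ± 6.82 CPM and Plk2 11.7 ± 2.87 CPM. Of the integrated stress response 2 of 19 were in the top 5%. The amino acid carrier gene Slc3a2 had 454, 439 and 473 CPM in a shared window, Asns 54.2 ± 12.98 CPM and Vldlr 1.54 ± 0.840 CPM.

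Regulators of the embryonic lineages had medians below that of all genes. In the top 5% were 1 of 10 neuroectoderm genes and none of 9 trophectoderm, 9 mesoderm and 9 endoderm genes. At these numbers that is close to the 4.35% of all genes. In a bulk sample, a low level in all cells and a higher level in few of them cannot be told apart. Neuroectoderm genes had a median of 8.33 CPM. The gene in the top 5% was Olig2, at 116, 109 and 116 CPM, followed by Neurog1 (37.8 ± 4.08 CPM) and Sox11 (25.8 ± 4.52 CPM), and Neurog2 at 0.733 ± 0.344 CPM. Trophectoderm genes had a median of 3.299 CPM. Tead4 had 35.5 ± 4.35 CPM and Tfap2c 5.67 ± 0.819 CPM, and Gata3 had no read in any library. Mesoderm genes had a median of 2.37 CPM and at most 6.01 ± 2.82 CPM, at Gsc, before Kdr (4.54 ± 3.23 CPM) and Evx1 (3.96 ± 2.003 CPM). Endoderm genes had a median of 0.667 CPM, led by Cxcr4 (8.64 ± 1.503 CPM) and Cubn (5.94 ± 1.43 CPM), and Hnf4a had no read. Of genes of the 2-cell-like state 2 of 10 had a window, Duxf3 (1.79 ± 1.01 CPM) and Tcstv1 (0.552 ± 0.341 CPM). Feeder fibroblast genes were led by Fbn1 (3.54 ± 1.45 CPM), Twist1 (2.72 ± 1.91 CPM) and Thy1 (1.69 ± 1.12 CPM). Genes of adult tissues had the lowest median, 0.458 CPM over 8 of 20 genes. Mbp had 5.07 ± 1.66 CPM and Hba-a1 3.78 ± 1.75 CPM, and Gfap had no read.

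A gene without a window is not thereby silent. Over all lists 191 genes had none at an end, of which 62 had a window inside the gene and 129 had none. The highest of the 62 were Rps2, Ubtf, Pfn1 and Brd2, the last, a reader of acetylated histones, at 516, 559.8 and 529.7 CPM.

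By chromosome, chromosome 11 carried 11.3 ± 0.0416% of the reads in 5.19% of the windows, and 21 of the 100 highest windows. Of its genes with a window 11.2% were in the top 5%, against 4.35% of all genes. Chromosome 13 held 16 of the 100 highest windows, all at ends of histone genes, and 5.47 ± 0.200% of the reads. Chromosome 17 was sparsely covered by the region list but its windows were high. Its 1128 windows had a median of 15.4 CPM and held 4.15 ± 0.0228% of the reads, and 37.4% of its protein-coding genes had a window at an end, against 59.2% of all. The X chromosome held 2.26 ± 0.0626% of the reads in 5.06% of the windows, and 0.911% of its genes were in the top 5%.

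On the X chromosome the highest window at a gene end lay at Suv39h1, which makes a histone H3 lysine methyltransferase of silent chromatin, with 342, 400.3 and 386 CPM in libraries 1, 2 and 3. It exceeded every other gene-end window of the X chromosome in every library. Rpl10, a ribosomal protein gene, had 169.8, 185 and 160.5 CPM. The shared window of Mpp1 and Dkc1 had 135, 161 and 122 CPM, the carrier gene Slc25a5 139.7, 116 and 133 CPM and the cold-induced Rbm3 115, 118 and 123 CPM. These last 3 overlapped in their library values. The 5 are the highest of the chromosome, so they are no measure of how low Firre was. Its 8 windows summed to 3.38 CPM. The median X-linked gene had 3.46 CPM in its highest gene-end window alone, which cannot be set against a sum over windows. The Firre window at an end of the gene, chrX:50562525-50563124, had a mean of 0.238 CPM, from 0, 2 and 1 reads. By that measure Firre lay below the median X-linked gene, at counts too low to say by how much.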

How the data were processed

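PRO-seq reads of 3 mouse embryonic stem cell libraries labelled 0 minutes, out of 9 in the series, were analysed. The deposited values were whole-number read counts per 600 bp window; HISAT2, featureCounts, DESeq2 1.26.0 and the build mm10 are named per the submitters' processing notes, without settings. The deposited region positions, of no measured unit (other), came from Tfit and muMerge per the file names, and the samples merged are not stated. The strand counted and the treatment of overlapping windows and of reads with several matches are not given in the sources used here. Overlapping windows (50841, 29.2%) can count a read more than once. The protocol's label adds 1% Drosophila nuclei, which were not used here.

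CPM was the count divided by the library total over all windows. Totals of 3813365 to 5518443 reads gave a median summed count of 8 per window, and precision is limited by counting error in the low windows. Windows were placed by their centre against the extents of 49939 RefSeq genes (GRCm38.p6, the same build): at a gene end within 1 kb, otherwise inside or outside genes. A gene took its highest gene-end window. RefSeq promoters (250 bases before to 50 after the start) were searched for motifs.

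With 1 group and no comparison over time no test was made, and errors are SDs over libraries. Neighbours in an order were called apart where all 3 values of 1 lay above all 3 of the other. Of 902 list entries 893 matched the annotation. The rule named all Firre windows, the 25 highest gene-end, 12 inside, 15 outside, 10 distal (over 15 kb) and 5 X-linked windows, and the 3 highest genes and the lowest gene of each list, of which some are not reported here. Other genes (Sox2, Utf1, Tdgf1, Lin28a, Prdm14, Nr0b1, Klf4, Tfcp2l1, Zfp42, Axin2, Jund, Hnrnpu, Ybx1, Actb, Esrrb, Socs3, Mcl1, Rps2, Brd2 and the own ends of Clstn3, Rps6ka1, Ppp1r12a, Ptma and Spred2) were named after their values were seen. The members and lists were chosen with earlier results of these data known.

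Alternatives were edgeR TMM factors and DESeq2 size factors in place of library totals, only windows free of overlap, a minimum of 10 counts, gene ends within 500 bp, protein-coding genes only, no pseudogenes (chosen after seeing the data), summed gene-end windows, leaving out the 100 highest windows, and each library left out. For Firre and for the chromosomes, scaling and left-out libraries were chosen after seeing the data where not planned. The method was tested on simulated data. Python 3.11.15, pandas 2.3.3, numpy 2.4.6, matplotlib 3.10.9, R 4.3.3, edgeR 4.0.16 and DESeq2 1.42.0 were used.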

Additional observations from a re-analysis of the deposited data

How the results depend on the processing

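Of 80 recomputed values 12 were called moved. Shares of reads and Firre's level were judged against the spread between libraries. Counts of list genes and of shared highest windows were judged by a wider limit on their ratio, under which none moved. Among windows that overlap no other, 167 list genes in the top 5% against 185 thus counted as unmoved. Scaling factors cannot change shares of reads or ranks within a library, so their unchanged values under them are no sign of stability. The 12 were shares that follow from how windows are classed or left out. With gene ends set at 500 bp, gene ends held 41.8%, windows inside genes 35.1% and windows outside genes 23.1% of the reads, against 50.6%, 28.3% and 21.1% at 1 kb. With protein-coding genes only the shares were 43.1%, 26.1% and 30.9%. Without pseudogenes, chosen after seeing the data, gene ends held 49.0% and windows outside genes 22.8%. Among windows that overlap no other, those outside genes held 20.4% and the 1000 highest windows 26.9% of the reads, against 24.4%. With the 100 highest windows left out, the rest of the 1000 highest held 17.96% of the remaining reads. Chromosome 11 held 10.5% of those reads, against 11.3% of all. Gene ends held the largest share in every setting. Leaving out 1 library in turn gave 50.1% to 51.1% for gene ends, 28.1% to 28.5% inside and 20.8% to 21.4% outside genes, 24.01% to 24.98% for the 1000 highest windows, 11.27% to 11.31% for chromosome 11, 2.58 to 3.796 CPM for Firre and 189 to 191 list genes in the top 5%, against 185. Of the 25 highest gene-end windows 22 to 24 stayed among the 25, of the 12 inside genes 11, and of the 15 outside genes 13 to 15. With a 500 bp limit 8 of the 12 highest windows inside genes and 12 of the 15 outside genes stayed. No paired analysis was possible because 1 group was described and no comparison was made. Depth limits the low windows: 3 reads equal 0.544 to 0.787 CPM, and the median window had 0.579 CPM.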
